A study of Homo sapiens with 12 samples.

Results

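Long intergenic noncoding RNAs with a GENCODE symbol that begins with LINC were examined in 12 RNA-seq libraries of HEK293T, a transformed human embryonic kidney line. The members were chosen by level, as LINC genes with a mean of at least 0.5 CPM over all 12 libraries, where CPM is the count on the gene per 1000000 counts on all genes of the library. They were 284 of the 2261 LINC genes listed, of which 1394 had a count in any library, and the same minimum left 17617 genes of every class for testing. The libraries formed 6 groups of 2, transfected with a control siRNA (siCTL) or with an siRNA against CARM1 (siCARM1), CHD4 (siCHD4), HDAC2 (siHDAC2), GATAD2A (siGATAD2A) or KDM1A (siKDM1A). All cells were labelled wild type and were grown in DMEM with serum, and the time after transfection is not given in the sources used here. CARM1 is an arginine methyltransferase of histones and other proteins, CHD4 is the ATPase of the NuRD chromatin remodeling complex, HDAC2 is a histone deacetylase in it, GATAD2A is a zinc finger subunit, and KDM1A is a histone lysine demethylase that associates with it. The study asked how CARM1 and NuRD act in gene activation, and the comparison here was each knockdown against siCTL and the knockdowns against each other.

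LINC is the name given to intergenic RNAs that code for no known protein and have no descriptive name. Most are made by RNA polymerase II, capped, spliced and polyadenylated like messenger RNAs, but they are often scarce, retained in the nucleus and restricted to few cell types. Many start near a coding gene and run away from it, some act on neighbouring genes in cis, and for most no function is known.

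The libraries held 19308315 to 28648657 counts on genes. Each targeted RNA was lower in its own knockdown, with 19.2% of the siCTL level left for CARM1, 67.0% for CHD4, 19.5% for HDAC2, 29.8% for GATAD2A and 16.6% for KDM1A. Of 5 genes taken as markers of HEK293T, NEFM lay below the minimum at a mean of 0.311 CPM and PAX2 was low at 0.958 CPM, while VIM, NEFL and LHX1 were between 16.4 and 509.5 CPM. The markers of blood and liver cells were at 0 to 0.534 CPM when summed in a library, and of the MCF7 markers ESR1 averaged 0.150 CPM, GATA3 12.2 CPM, KRT19 90.7 CPM and PGR 4.01 CPM. Nothing in the labels says whether the 2 libraries of a group came from separate cultures, so p-values measure only the spread between these libraries, which may be technical.

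The members were scarce RNAs. Per exonic length, their median level was 0.638 FPKM (CPM divided by the exonic length in kilobases), against 5.75 FPKM for the 13759 coding genes tested. On that scale 14 members lay under 0.1 FPKM, 105 between 0.1 and 0.5 FPKM, and 8 reached 10 FPKM or more. The median member had a mean of 44.1 counts per library, the lowest had 12, and 5 members had a library at 0. Depth therefore limits what can be seen, as the median standard error of a log2 fold change was 0.28 for members and 0.096 for all genes tested in siCARM1. The members had a median of 5 exon blocks and 3773 exonic bases, against 11 blocks and 5432 bases for coding genes.

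**Figure D1:**
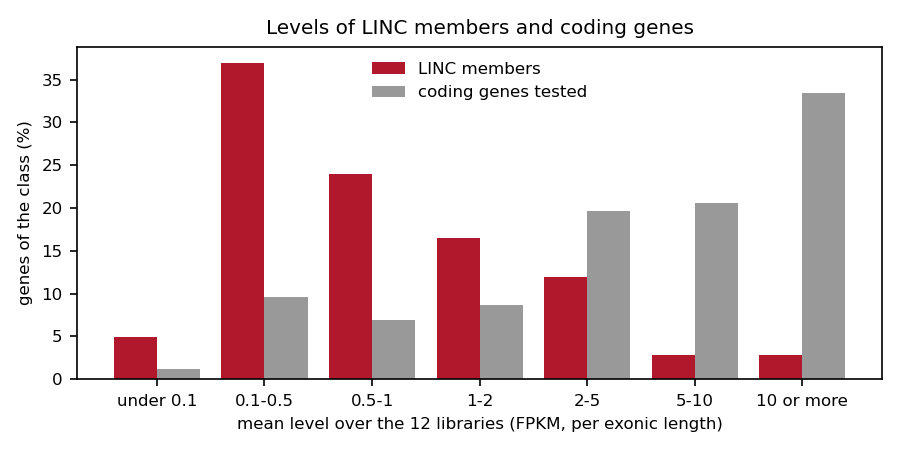
Share of genes (%) by mean level over the 12 libraries (FPKM, in bins) for the 284 LINC members (red) and the 13759 coding genes tested (grey). Members were mostly between 0.1 and 2 FPKM, where fewer coding genes lay.

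Most members stood apart from coding genes. In the annotation, 244 overlapped no coding gene body, 40 did, 16 of them on the same strand, and the median distance to the nearest coding start was 46469 bp. By class 271 were lncRNA, 1 was lincRNA and 12 were pseudogenes. On the same strand 35 members shared exonic bases with another gene, 16 of them over 10% of their length, and reads of such pairs cannot be assigned with certainty. The library kit keeps strand, and the median member had 2.04% of its counts on the opposite strand. In 221 members it was under 10%, and in 21 it was over 50%.

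The 300 bases from 250 before to 50 after the start of the canonical transcript differed from those of coding genes in base composition. The window of a member held a median of 10 CG dinucleotides (quartiles 4 and 24), against 27 for coding genes and 14 for the 2305 other lncRNA genes tested. Fewer than 5 were present in 77 members, 27.1% of them, in 3.85% of coding genes and in 25.99% of other lncRNA genes. Searched on both strands, the letters GGGCGG, the core that Sp1 family factors bind, were in 36.6% of member windows, 43.8% of other lncRNA windows, 74.4% of coding windows and 66.3% of all 17509 windows read. TATAAA was in 10.9% of member windows, 11.8% of other lncRNA windows, 5.545% of coding windows and 7.32% of all windows. CCAAT was in 37.3%, 31.4%, 36.1% and 35.3% in the same order. In the share of windows with few CG dinucleotides, with GGGCGG or with TATAAA, other lncRNA genes were thus closer to the members than coding genes were. For CCAAT, coding genes were the closer class. These are letter matches and not sites shown to be bound.

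Members were called higher more often than lower in every knockdown, with the smallest margin in siCHD4. A gene was called at an adjusted p of 0.05 or less in edgeR's quasi-likelihood test with Benjamini-Hochberg adjustment over all genes tested, and a fold of at least 1.2. In siCARM1, 63 members (22.2%) were higher and 22 (7.75%) lower, where 13.1% of all genes were called in each direction. In siHDAC2, 50 (17.6%) were higher, against 9.64% of all genes, and 11 (3.87%) lower, against 8.96%. The same lean was found in siKDM1A and siGATAD2A. In siKDM1A, 57 (20.1%) were higher, against 12.7% of all genes, and 17 (5.99%) lower, against 10.8%. In siGATAD2A, 47 (16.5%) were higher, against 13.9%, and 26 (9.15%) lower, against 16.5%. The siCHD4 libraries showed little lean, with 63 members (22.2%) higher, against 20.9% of all genes, and 52 (18.3%) lower, against 22.5%.

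The medians gave the same picture. The median log2 fold change of the 284 members was 0.20 in siCARM1, 0.22 in siHDAC2, 0.17 in siGATAD2A, 0.20 in siKDM1A and 0.02 in siCHD4, while that of all genes tested lay within 0.01 of 0 in each. The lean was not particular to LINC genes. The 2305 other lncRNA genes had medians of 0.08, 0.15, 0.17, 0.13 and 0.02 in the same order, and coding genes had medians from -0.03 to -0.01. Among the 66 members with a mean of at least 5 CPM, 17 (25.8%) were higher and 11 (16.7%) lower in siCARM1, against 14.4% and 15.8% of all genes at that level. In siHDAC2, 16 were higher and 4 lower (24.2% and 6.06%, against 10% and 11.2%), and in siGATAD2A 19 and 8 (28.8% and 12.1%, against 14.8% and 19.7%). In siKDM1A, 20 were higher and 6 lower (30.3% and 9.09%, against 13% and 13.2%), and in siCHD4 16 and 17 (24.2% and 25.8%, against 21.8% and 26.4%). The 413 other lncRNA genes at that level were higher in 28.1% (siCARM1), 27.4% (siHDAC2), 37.3% (siGATAD2A), 26.9% (siKDM1A) and 27.8% (siCHD4). They were lower in 12.8%, 7.51%, 9.69%, 8.72% and 25.4% in the same order. All 5 comparisons share the siCTL libraries. The members also passed the minimum on a mean in which 5 of 6 groups were knockdowns, so a gene high in several knockdowns passed more easily than one high in siCTL.

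**Figure D2:**
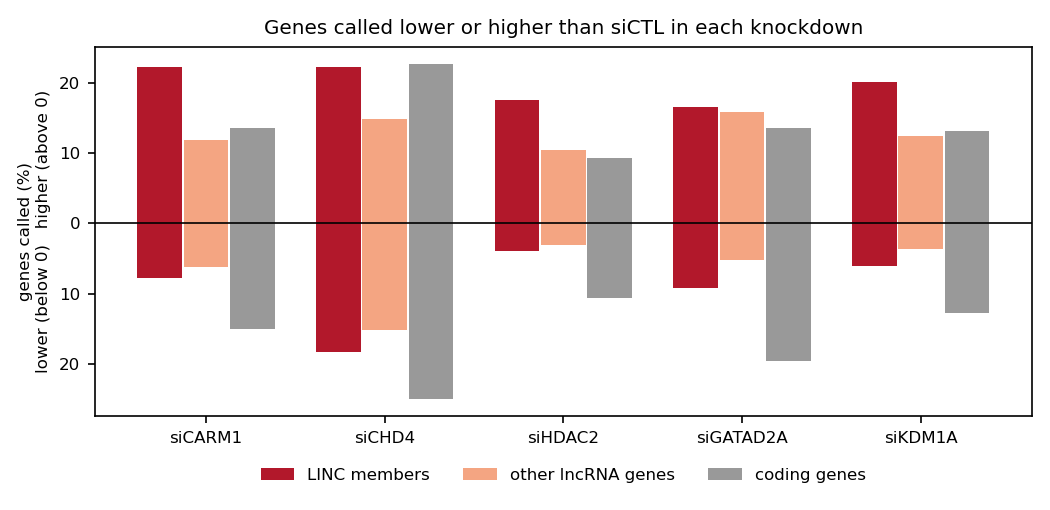
Genes called higher (above 0) or lower (below 0) than siCTL in each knockdown, as % of the class, for the 284 LINC members (red), 2305 other lncRNA genes (orange) and 13759 coding genes (grey). Members were more often higher than lower throughout, least so in siCHD4, and other lncRNA genes were so in every knockdown but siCHD4, while coding genes were more often lower except in siKDM1A.

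The counts depended on single libraries. For the fits with a library left out, the share of all genes called is not given. Those fits therefore show the order of higher and lower among members, and not a lean against all genes. Without siCTL replicate 2, 30 members were higher and 15 lower in siCARM1, 27 and 7 in siHDAC2, 40 and 13 in siGATAD2A and 32 and 10 in siKDM1A. Without siCTL replicate 1 the numbers were 42 and 19, 30 and 9, 37 and 15, and 41 and 12, so the order of higher over lower held in these 4 knockdowns under both. Of the knockdown libraries, leaving out siCARM1 replicate 1 gave 41 higher and siCARM1 replicate 2 gave 14 lower in siCARM1, leaving out siHDAC2 replicate 1 or 2 gave 32 or 33 higher in siHDAC2, leaving out either siGATAD2A library gave 16 lower in siGATAD2A, and leaving out siKDM1A replicate 2 gave 7 lower in siKDM1A.

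As a share of all counts on genes, the members together changed little. Their summed level was 1633 and 1634 CPM in siCTL, 1715 and 1698 CPM in siCARM1, and 1632 and 1643 CPM in siCHD4. It was 1723 and 1741 CPM in siHDAC2, 1713 and 1720 CPM in siGATAD2A, and 1743 and 1722 CPM in siKDM1A. In this sum siCHD4 overlapped siCTL and the other knockdowns lay above it, but the most abundant members weigh heavily. The 5 most abundant alone summed to 469.9 and 482.9 CPM in siCTL, 379.0 and 372.0 CPM in siCHD4, and 418.5 to 451.4 CPM in the other knockdowns. The median member was at 1.53 and 1.58 CPM in siCTL, 1.79 and 1.82 CPM in siCHD4, and 1.79 to 1.98 CPM in the others. Some read pairs overlapped no annotated exon on the counted strand, and these can include pairs in introns or on the opposite strand of a gene. Their share was 17.2 to 18.0% in siCTL, 18.6 to 19.8% in siCARM1 and 18.5 to 18.7% in siCHD4. It was 20.8 to 21.2% in siHDAC2, 20.7 to 20.9% in siGATAD2A and 19.1 to 19.3% in siKDM1A. Pairs that mapped to several places made up 7.54 to 10.6% in siCTL and 5.44 to 9.19% in the knockdowns. The part of either share in the lean was not tested.

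Of the members, 189 (66.5%) differed between any of the 6 groups, against 79.8% of all genes. In at least 1 knockdown 197 were called (69.4%, against 66.8%), and 87 in none. Each comparison was adjusted alone, so a member called in a knockdown need not differ in the test over all groups. In 4 or more knockdowns, 8 were lower (2.82%, against 4.12%) and 20 higher (7.04%, against 4.89%). Of these 3 were lower in all 5 knockdowns (1.06%, against 1.66% of all genes) and 8 were higher in all 5 (2.82%, against 1.92%). Without siCTL replicate 1 or 2, 3 or 4 were higher in all 5.

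The members lower in all 5 knockdowns were LINC02593, LINC00963 and LINC01451. LINC02593 (ENSG00000223764.2, chr1:852245-856396 on the minus strand of GRCh37, the build of hg19) has the start of its canonical transcript at 855072, inside the gene's span and 4231 bp from the start of the coding gene SAMD11, and runs away from SAMD11. The promoter window around that start, shown because both genes of the pair fell in every knockdown, spans chr1:855023-855322 with 11 CG dinucleotides, given in capitals.
LINC02593: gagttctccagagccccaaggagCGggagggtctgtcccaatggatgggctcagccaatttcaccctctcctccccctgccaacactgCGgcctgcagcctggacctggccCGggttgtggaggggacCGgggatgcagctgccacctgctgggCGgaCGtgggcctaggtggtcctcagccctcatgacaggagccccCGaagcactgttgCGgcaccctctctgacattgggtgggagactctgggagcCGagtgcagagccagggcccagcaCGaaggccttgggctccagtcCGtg
LINC02593 was at 124.5 and 133.2 CPM in siCTL and at 44.3 and 44.1 CPM in siCHD4. In the other knockdowns it was at 95.8 and 89.7 CPM in siCARM1, 101.0 and 109.5 CPM in siHDAC2, 107.5 and 103.4 CPM in siGATAD2A, and 112.3 and 99.1 CPM in siKDM1A. Every knockdown library lay below both siCTL libraries, and siCHD4 lay far below the rest. It fell by 1.52 on the log2 scale in siCHD4 (SE 0.0607), and its log2 fold change was between -0.49 and -0.31 elsewhere. Its call was lost in siHDAC2, siGATAD2A and siKDM1A without siCTL replicate 2 (-0.25, -0.26 and -0.25). The call was also lost in siHDAC2 without siHDAC2 replicate 1 (-0.25) and in siKDM1A without siKDM1A replicate 2 (-0.22). Each of these values was still negative but under the fold minimum of 1.2. SAMD11, which encodes a nuclear SAM domain protein, averaged 164.4 CPM in siCTL, 96.6 CPM in siCARM1, 52.8 CPM in siCHD4, 84.8 CPM in siHDAC2, 51.2 CPM in siGATAD2A and 70.9 CPM in siKDM1A. For SAMD11 the siGATAD2A and siCHD4 means were within the spread between libraries (SD 1.22 and 2.37), while LINC02593 was higher in siGATAD2A than in siCHD4 by 1.203 on the log2 scale (SE 0.0608).

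LINC00963 (ENSG00000204054.14, chr9:132239225-132275966, plus strand) was at 32.6 and 33.9 CPM in siCTL and 6.45 and 8.26 CPM in siCHD4. Its libraries in the other knockdowns ranged from 19.8 CPM in siCARM1 to 26.4 CPM in siKDM1A and overlapped neither siCTL nor siCHD4. The log2 fold change was -2.15 (SE 0.102) in siCHD4, and the direct difference between siCHD4 and each other knockdown was also called, the smallest being -1.42 (SE 0.105) against siCARM1. LINC01451, a scarce RNA at chr9:139506476-139511633 next to EGFL7, was at 2.23 and 2.25 CPM in siCTL and between 0.118 and 0.817 CPM in every knockdown library. Its log2 fold change ran from -3.18 in siCHD4 to -1.68 in siHDAC2, on 3 to 23 counts per knockdown library. LINC01451 was over the minimum only because of the siCTL libraries, so its fall was built into the choice and is a description.

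The 8 members higher in all 5 knockdowns were LINC00958, LINC01694, LINC01234, LINC-PINT, LINC01315, LINC01366, LINC01399 and LINC01422. LINC00958 (chr11:12983088-13011144) was the most abundant of them in CPM, with 23.7 and 24.2 CPM in siCTL and 47.5 and 49.8 CPM in siCHD4. Its levels in the other knockdowns lay in between, from 29.5 CPM in siGATAD2A to 40.5 CPM in siKDM1A. LINC00958 rose by 1.05 on the log2 scale in siCHD4 (SE 0.0695) and by 0.28 in siGATAD2A (SE 0.0729), where the call was lost without siCTL replicate 1 (0.26) or with no filter on level (0.26).

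LINC01234 and LINC01694 had a graded pattern with siCHD4 at the top. LINC01234 (chr12:114021691-114211531) was at 1.97 and 1.26 CPM in siCTL, 13.0 and 13.6 CPM in siCHD4, and 2.92 to 3.93 CPM in the other knockdowns. LINC01694 (chr21:47010685-47023002), near PCBP3, was at 2.12 and 3.12 CPM in siCTL, 12.8 and 14.6 CPM in siCHD4, and 3.49 to 6.04 CPM in the others. For both RNAs siCHD4 stood apart from every other group and siCTL lay lowest. The log2 fold change in siCHD4 was 3.09 (SE 0.175) for LINC01234 and 2.39 (SE 0.168) for LINC01694, and each differed from all 4 other knockdowns by the same test. The smaller changes rested on single libraries in siHDAC2 and siKDM1A. LINC01694 was no longer called in siHDAC2 without siCTL replicate 1 (0.44) or siHDAC2 replicate 2 (0.54), nor in siKDM1A without siCTL replicate 1 (0.36) or siKDM1A replicate 1 (0.37), and LINC01234 was no longer called in siKDM1A without siCTL replicate 2 (0.67).

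LINC-PINT, a p53-induced transcript, rose to a like level in all 5 knockdowns. It was at 1.55 and 1.60 CPM in siCTL, and the knockdown libraries ranged from 2.41 CPM in siKDM1A to 4.19 CPM in siCARM1. Its log2 fold change lay between 0.85 (SE 0.262) in siKDM1A and 1.16 (SE 0.253) in siCHD4. The call ended in siCARM1 without siCARM1 replicate 2 (0.63) and in siKDM1A without siCTL replicate 1 (0.83), siCTL replicate 2 (0.88) or siKDM1A replicate 2 (0.59). Its long locus on chromosome 7 spans several antisense transcripts, and 5.59% of its counts were on the opposite strand.

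The remaining members of that set were near or below 4 CPM in every library. LINC01366 (chr5:169734726-169762512) was at 0.829 and 0.737 CPM in siCTL and 1.36 to 2.78 CPM in the knockdowns. LINC01315 was at 1.502 and 1.34 CPM in siCTL and 1.98 to 3.57 CPM in the knockdowns, and its adjusted p of 0.0494 in siHDAC2 (edgeR, Benjamini-Hochberg) stood close to the threshold. LINC01399, annotated as a transcribed processed pseudogene, was at 0.466 and 0.217 CPM in siCTL, 3.73 and 3.99 CPM in siCHD4 and 0.698 to 2.12 CPM in the others. LINC01422 had 1 and 2 counts in siCTL and 8 to 31 counts in each knockdown library. The ratio of its pooled levels to siCTL was 15.2 in siCHD4 (95% exact interval 4.93 to 76.0, counting error only) and 5.93 in siGATAD2A (1.77 to 31.1). LINC01399 and LINC01422 are among 36 members that averaged under 0.5 CPM in siCTL, so they passed the minimum through the knockdowns. Their rise was thus favoured by the choice, and their values are a description. Calls of LINC01315, LINC01366, LINC01399 and LINC01422 were lost when libraries were left out or settings were changed. LINC01315 lost its call in siHDAC2 without any of 10 libraries (0.50 to 0.79) and also with DESeq2, RLE scaling, either other filter, counts without strand, only the 2 groups compared or the replicate block (0.62 to 0.67). With DESeq2 it lost its call in siCARM1 (0.73) and siGATAD2A (0.73) as well, and with thinned libraries in both (0.64 and 0.62). It was no longer called in siCARM1 without siCTL replicate 1 (0.81), siCTL replicate 2 (0.66) or siCARM1 replicate 1 (0.47), and in siGATAD2A without siCTL replicate 1 (0.81), siCTL replicate 2 (0.65) or siGATAD2A replicate 2 (0.65). LINC01366 lost it in siHDAC2 without siCTL replicate 2 (1.08) or siHDAC2 replicate 2 (0.78) and in siGATAD2A without siGATAD2A replicate 2 (0.91). LINC01399 lost it in siHDAC2 without siCTL replicate 2 (0.86) or siHDAC2 replicate 1 (1.05) and in siKDM1A without siCTL replicate 2 (0.998) or siKDM1A replicate 2 (1.34), as well as in siHDAC2 with DESeq2 (1.36) and in siKDM1A with thinned libraries (1.22). LINC01422 lost it in siCARM1 without siCTL replicate 1 (2.33) and in siGATAD2A without siCTL replicate 1 (2.18) or siGATAD2A replicate 1 (2.13).

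**Figure D3:**
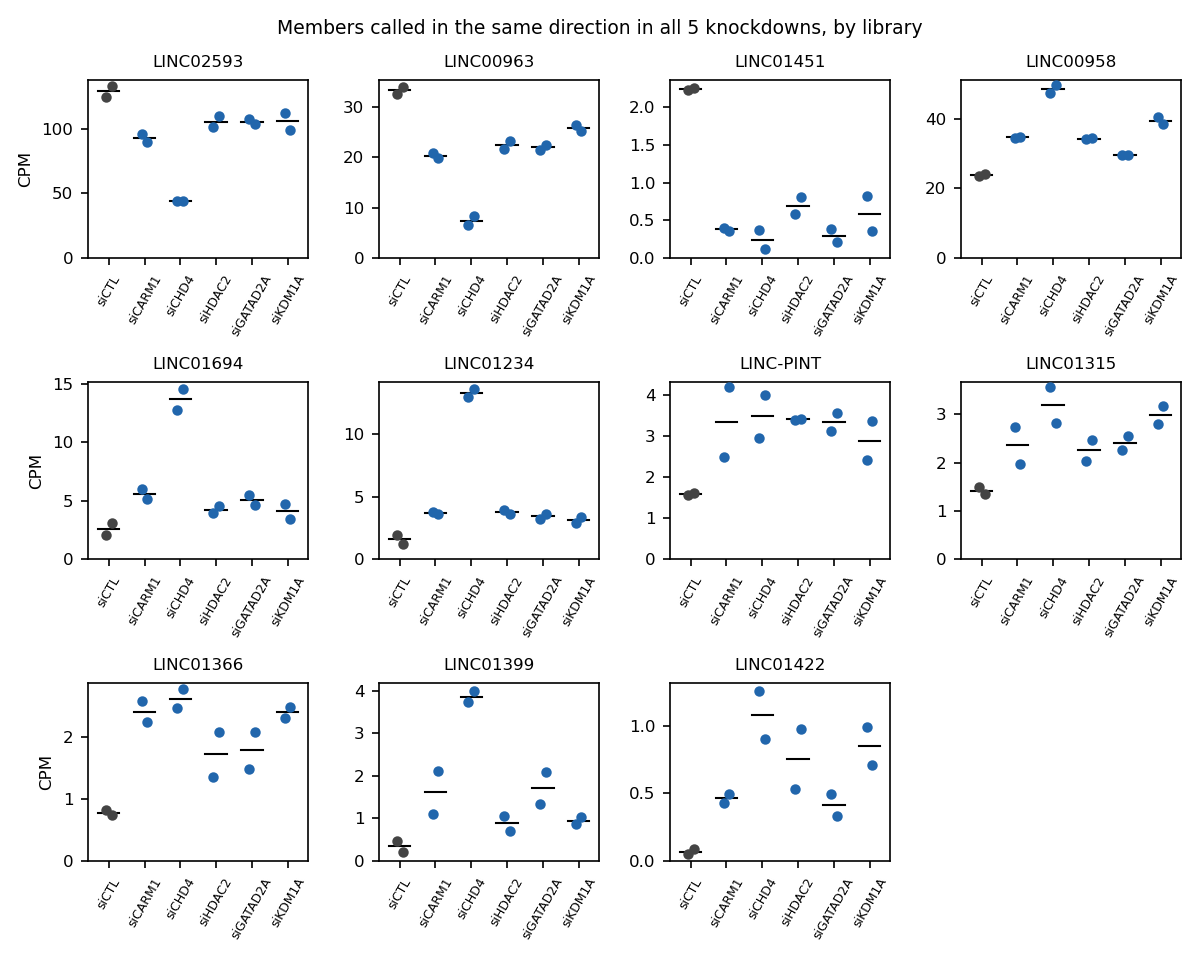
Level (CPM, linear axis from 0) in each library for the 3 members called lower and the 8 called higher than siCTL in all 5 knockdowns. Points are single libraries, grey for siCTL and blue for knockdowns, and lines are means of 2. The members for which siCHD4 is the furthest from siCTL include LINC02593, LINC00963, LINC01451, LINC00958, LINC01694, LINC01234, LINC01399 and LINC01422.

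Members that stood apart in a single knockdown were found mostly in siCHD4. In siCHD4, 27 members were higher than in siCTL and than in each other knockdown, 9.51% of members against 8.19% of all genes, and 21 were lower, 7.39% against 8.96%. The shares were thus near those of all genes. The same rule found 7 members in siGATAD2A (4 higher at 1.41%, against 1.37% of all genes, and 3 lower at 1.06%, against 3.16%), 2 higher in siHDAC2 (0.704%, against 0.204%), 2 higher in siKDM1A (0.704%, against 1.13%) and 1 lower in siCARM1 (0.352%, against 1.14%). CHD4 was also the target with the most RNA left. Direct comparison of the knockdowns gave the same order, with 121 members different between siCHD4 and siCARM1 (42.6%, against 42.8% of all genes), 121 between siCHD4 and siHDAC2 (42.6%, against 44.1%), 119 between siCHD4 and siKDM1A (41.9%, against 43.2%) and 101 between siCHD4 and siGATAD2A (35.6%, against 39.9%). Between siGATAD2A and siCARM1, siHDAC2 or siKDM1A, 62, 58 and 77 differed (21.8%, 20.4% and 27.1%, against 29.5%, 25.9% and 28.4%). The fewest separated siCARM1, siHDAC2 and siKDM1A from each other, with 40 between siKDM1A and siCARM1 (14.1%, against 18.3%), 32 between siHDAC2 and siCARM1 (11.3%, against 16.4%) and 26 between siKDM1A and siHDAC2 (9.15%, against 12.3%).

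Of the 27 members highest in siCHD4, 10 were over the minimum only because of the siCHD4 libraries, and all 10 averaged under 0.5 CPM in siCTL. Over all members, 21 passed through a single group, 10 through siCHD4, 5 through siCTL, 4 through siCARM1 and 2 through siHDAC2. For these a difference was built into the choice, so their values are given as a description. Among them are LINC01602, LINC01404, LINC02105 and LINC00479. In siCHD4 all of these RNAs had several times the counts of any other library. The starts of the last 3 are shown as examples, and the start of LINC01602 is not reported here. CG dinucleotides are in capitals.
LINC01404: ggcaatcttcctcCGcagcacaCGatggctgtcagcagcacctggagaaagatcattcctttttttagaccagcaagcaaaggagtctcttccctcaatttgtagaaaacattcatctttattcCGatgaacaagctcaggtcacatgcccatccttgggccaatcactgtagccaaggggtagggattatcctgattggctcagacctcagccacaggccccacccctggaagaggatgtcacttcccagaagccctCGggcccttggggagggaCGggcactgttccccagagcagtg
LINC02105: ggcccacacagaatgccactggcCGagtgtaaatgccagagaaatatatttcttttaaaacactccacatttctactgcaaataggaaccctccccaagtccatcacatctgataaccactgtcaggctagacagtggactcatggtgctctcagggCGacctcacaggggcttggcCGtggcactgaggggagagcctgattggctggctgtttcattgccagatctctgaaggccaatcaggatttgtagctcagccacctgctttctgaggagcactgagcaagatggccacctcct
LINC00479: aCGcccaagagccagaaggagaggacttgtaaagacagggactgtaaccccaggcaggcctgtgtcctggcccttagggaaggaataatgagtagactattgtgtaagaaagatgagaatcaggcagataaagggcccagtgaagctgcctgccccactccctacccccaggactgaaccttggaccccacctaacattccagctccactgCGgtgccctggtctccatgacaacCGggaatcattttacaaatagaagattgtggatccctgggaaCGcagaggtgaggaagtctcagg
The windows are chr12:111395567-111395866, chr5:53115503-53115802 and chr21:43135886-43136185 of GRCh37, each read on the minus strand, and hold 5, 3 and 4 CG dinucleotides. CCAAT was present on both strands in the first 2, GGGCGG and TATAAA in none. Over the 27 members highest in siCHD4 the median was 7 CG dinucleotides, against 10 over all members and 25 over all 17509 windows. GGGCGG was in 6 of the 27 (22.2%), against 36.6% of all members and 43.8% of other lncRNA windows. As 10 of the 27 passed the minimum only through siCHD4, these shares are a description. Fewer than 5 CG dinucleotides were present in 5 of the 27 (18.5%), a lower share than the 27.1% of all members, so the windows of these RNAs were not more often the poorest in CG.

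LINC01602, on chromosome 8 near FAM110B, had 0 and 0 counts in siCTL and 111 and 105 counts in siCHD4. The other knockdowns had between 0 and 6 counts in a library. Pooled over both libraries, siCHD4 was at 4.30 CPM, at least 60.8-fold higher than siCTL, for which 3 counts over the group would be 0.0708 CPM. LINC01404, which lies near MYL2 and overlaps LINC01405 on the other strand, had 4 and 1 counts in siCTL, 138 and 124 in siCHD4, and 18 and 13 in siCARM1. Its siCHD4 level was 44.3 times that of siCTL (95% exact interval 18.7 to 137.4). LINC02105, near NDUFS4, had 76 and 75 counts in siCHD4 and 0 to 3 in every other library, a ratio to siCTL of 42.5 (14.3 to 208.4) on 3 siCTL counts. LINC00479, near RIPK4, had 56 and 60 counts in siCHD4, 6 and 1 in siCTL and 0 and 0 in siKDM1A, and was 14.0 times higher in siCHD4 than in siCTL (6.58 to 35.6). The intervals cover counting error only.

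**Figure D4:**
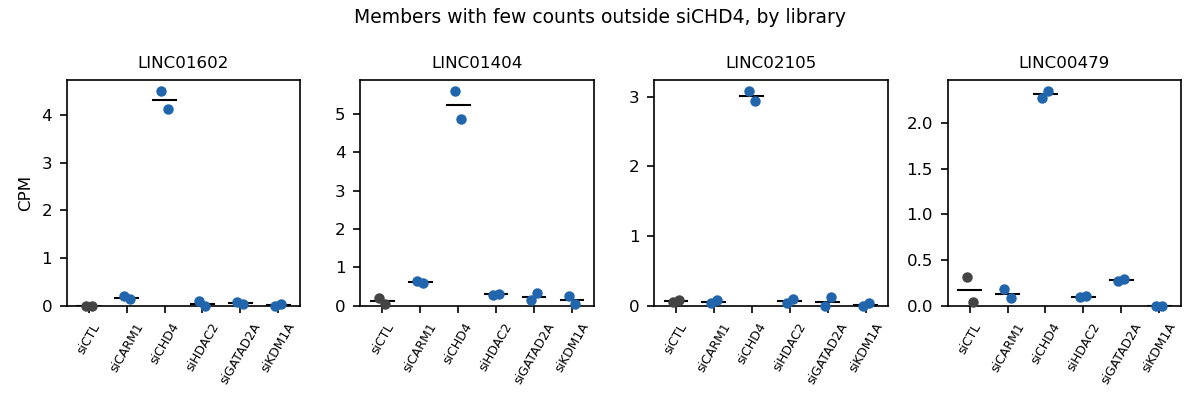
Level (CPM, linear axis from 0) in each library of LINC01602, LINC01404, LINC02105 and LINC00479, which passed the minimum through siCHD4. Points are single libraries and lines are means of 2, and the siCHD4 libraries lie between 2.27 and 5.60 CPM while the other libraries are under 0.7 CPM.

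The 5 most abundant members by CPM were LINC02693, LINC02593, LINC00632, LINC02210 and LINC00205. Per length they ranged from 3.31 FPKM for LINC00632 to 23.4 FPKM for LINC02593. LINC02693, next to KCNJ12 on chromosome 17, was at 119.1 and 126.1 CPM in siCTL and between 106.0 and 126.6 CPM elsewhere, and was called in no knockdown.

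LINC00632 (chrX:139791727-139875380) contains on its strand the region opposite CDR1 and is known as the host transcript of the circular RNA CDR1as, which gene counts cannot separate from the linear RNA. It was at 111.7 and 102.3 CPM in siCTL, 74.5 and 73.4 CPM in siGATAD2A and 79.8 and 84.2 CPM in siKDM1A. The libraries of siCARM1, siCHD4 and siHDAC2, at 100.5 to 106.4 CPM, overlapped siCTL. The log2 fold change was -0.56 (SE 0.0522) in siGATAD2A and -0.40 (SE 0.0519) in siKDM1A, and no left-out library ended either call.

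LINC00205 starts 142 bp from POFUT2, a fucosyltransferase gene of the other strand. Its window at chr21:46707702-46708001 is shown as an example of a shared, CG-rich start, with 33 CG dinucleotides in capitals.
LINC00205: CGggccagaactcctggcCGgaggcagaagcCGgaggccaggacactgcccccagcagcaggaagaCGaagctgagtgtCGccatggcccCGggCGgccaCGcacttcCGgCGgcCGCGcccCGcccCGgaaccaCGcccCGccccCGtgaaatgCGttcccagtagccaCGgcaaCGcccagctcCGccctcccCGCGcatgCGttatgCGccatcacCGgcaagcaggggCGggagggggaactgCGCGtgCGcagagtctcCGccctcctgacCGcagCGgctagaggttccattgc
LINC00205 was at 58.0 and 60.6 CPM in siCTL and 36.2 and 36.9 CPM in siCHD4, while the other knockdowns lay between 57.7 and 73.4 CPM. The log2 fold change in siCHD4 was -0.67 (SE 0.0589), and siCHD4 was below each other knockdown. POFUT2 averaged 41.6 CPM over the siCTL libraries (SD 0.555) and 43.9 CPM over the siCHD4 libraries (SD 1.86), with a log2 fold change of 0.10 (SE 0.0668) that was not called. The 2 RNAs from this region thus did not move together in siCHD4. In siGATAD2A, POFUT2 rose by a log2 fold change of 0.35 (SE 0.0655), where LINC00205, at 0.26 (SE 0.0551), fell short of the fold minimum.

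LINC02210 (chr17:43697694-43732522), a transcribed unitary pseudogene that shares exonic bases with the readthrough gene LINC02210-CRHR1, was at 56.7 and 60.7 CPM in siCTL and 77.1 and 81.3 CPM in siGATAD2A. Its log2 fold change there was 0.40 (SE 0.0549). In siCHD4 it was 0.26 (SE 0.0555) and was not called without siCTL replicate 1 (0.21), with either other filter on low genes (0.25 and 0.24) or with thinned libraries (0.25).

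Within 5000 bp, 30 members had a coding gene that started in the opposite direction, and in 29 of these pairs the coding gene was tested. TM9SF2 was the partner of both LINC01232 and LINC00449 and is counted in both pairs. In siCARM1, 9 of the 29 members (31.0%) and 10 of the coding genes (34.5%) were called, against 26.2% of all genes in either direction, with 5 pairs in the same direction and 0 in opposite directions. In siCHD4, 16 members (55.2%) and 11 coding genes (37.9%) were called, against 43.5%, with 5 pairs in the same and 4 in opposite directions. The 5 were LINC02593 with SAMD11, LINC01896 with SALL3, LINC01770 with VWA1, LINC03073 with TNRC18 and LINC02600 with ADRA2C, and the 4 were LINC01547 with SLX9, LINC02166 with CDK10, LINC01560 with ZNF41 and LINC01033 with ARL15, all named after their values were seen. LINC02600 and ADRA2C, an adrenergic receptor gene, were higher by 2.01 and 1.26 on the log2 scale, while LINC01033 was higher by 1.28 and ARL15 lower (-0.72). In siHDAC2, 4 members (13.8%) and 7 coding genes (24.1%) were called, against 18.6% of all genes, in siGATAD2A 7 (24.1%) and 9 (31.0%), against 30.4%, and in siKDM1A 8 (27.6%) and 11 (37.9%), against 23.6%. In these 3 knockdowns 1, 1 and 2 pairs moved in the same direction and 0, 1 and 0 in opposite directions. The pair counts have no share from divergent pairs of other genes beside them, and whether pairs moved together was not tested.

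Other members were named because they had the largest changes of a knockdown. LINC01554 (chr5:95173949-95195845) was at 1.04 and 1.04 CPM in siCTL, 0.180 and 0.0451 CPM in siCARM1, and 0.340 and 0.349 CPM in siHDAC2. The siGATAD2A libraries, at 1.11 and 1.13 CPM, did not lie below siCTL. Its log2 fold change was -3.08 (SE 0.554) in siCARM1, on 5 and 1 counts, and -1.59 (SE 0.449) in siHDAC2. In siKDM1A it was -1.08 (SE 0.419), a call that ended without either siCTL library (-1.09 and -1.08) or either siKDM1A library (-1.03 and -1.15), and with DESeq2 (-1.09), either other filter (-1.09 and -1.10), counts without strand (-0.63) or thinned libraries (-1.01). Counted without strand it was not called in siHDAC2 (-0.87). LINC03048, near BAHCC1, was at 1.76 and 1.47 CPM in siCTL and at 0.534 and 0.524 CPM in siHDAC2, where it fell by 1.62 on the log2 scale (SE 0.364). It was also called lower in siCARM1 and siCHD4, and in siGATAD2A (-1.03) except without siCTL replicate 1 (-0.91) or siGATAD2A replicate 2 (-0.83) or with DESeq2 (-1.04).

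LINC02154, on the X chromosome near ATXN3L, was highest in siKDM1A. It was at 0.932 and 0.650 CPM in siCTL, 3.83 and 4.28 CPM in siKDM1A and 2.48 and 2.27 CPM in siCHD4. LINC02154 rose by 2.35 on the log2 scale in siKDM1A (SE 0.283) and by 1.62 in siCHD4 (SE 0.305), and siKDM1A was above each other knockdown in the direct tests. The siGATAD2A libraries, at 0.921 and 0.543 CPM, overlapped siCTL. LINC01806, near PSMD14, was at 0.725 and 0.867 CPM in siCTL, 2.62 and 3.11 CPM in siCARM1, 2.38 and 2.42 CPM in siGATAD2A and 2.58 and 2.69 CPM in siKDM1A. It was not called in siCHD4, at 0.933 and 0.979 CPM. LINC02367 rose in siGATAD2A by a log2 fold change of 2.54 (SE 0.489), from 3 and 8 counts to 36 and 42, but 80.3% of the counts at this locus were on the opposite strand.

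**Figure D5:**
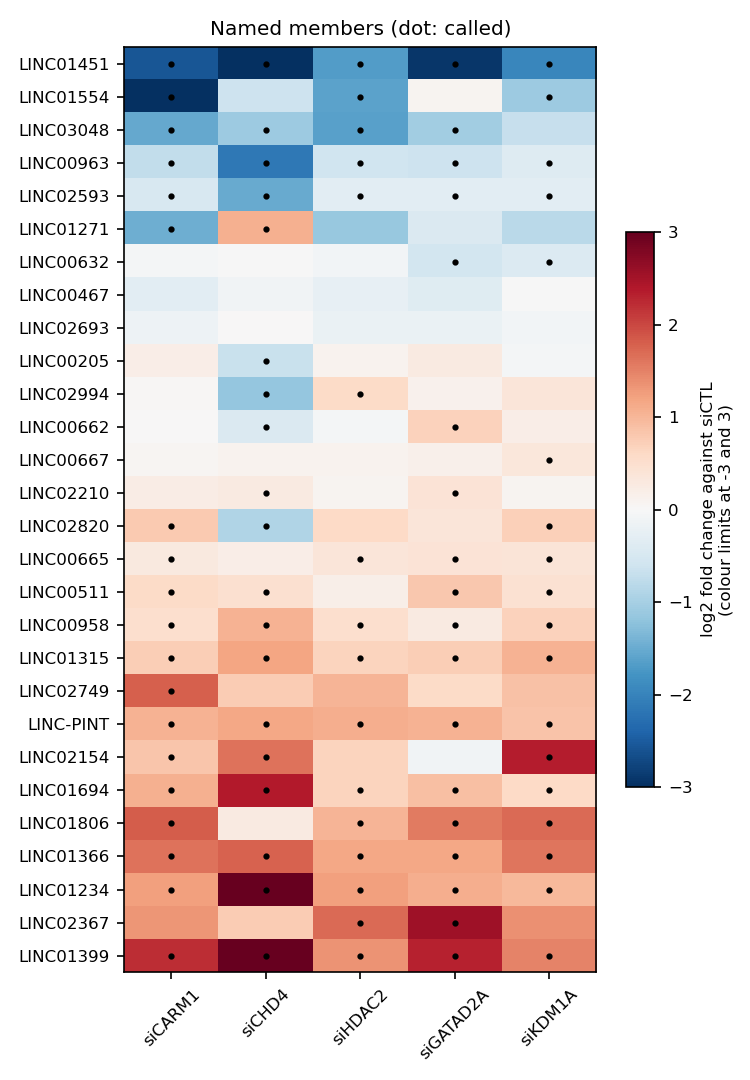
Log2 fold change against siCTL (colour, limits at -3 and 3) of the named members in each of the 5 knockdowns, with a dot where the member was called. Members with few or no counts in a group (LINC01602, LINC01404, LINC02105, LINC00479 and LINC01422) are left out, and rows run from LINC01451, lowest on average, to LINC01399, highest.

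Opposite calls in different knockdowns were made for 18 members (6.34%, against 7.97% of all genes). LINC00662 (chr19:28171980-28284913) was at 17.4 and 18.7 CPM in siCTL, 12.9 and 13.3 CPM in siCHD4 and 30.6 and 28.9 CPM in siGATAD2A. The 3 groups did not overlap. The log2 fold change was -0.44 (SE 0.103) in siCHD4 and 0.69 (SE 0.0947) in siGATAD2A, and the direct difference was 1.13 (SE 0.0966). LINC02994, near NKX6-1, was at 3.88 and 3.81 CPM in siCTL, 1.74 and 1.65 CPM in siCHD4 and 6.404 and 5.31 CPM in siHDAC2. Its fall in siCHD4 was -1.16 (SE 0.218) and its rise in siHDAC2 0.57 (SE 0.178), the latter lost without siCTL replicate 1 (0.58), siCTL replicate 2 (0.56) or siHDAC2 replicate 1 (0.45) or with DESeq2 (0.58).

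LINC genes often described in tumours were followed by name. LINC00511, next to SOX9, was at 7.25 and 7.24 CPM in siCTL and 13.1 and 12.8 CPM in siGATAD2A, a log2 fold change of 0.81 (SE 0.122). It was also higher in siCARM1 (0.58), siKDM1A (0.46) and siCHD4 (0.49, lost without siCHD4 replicate 1 at 0.36), and was not called in siHDAC2. LINC00665 was at 37.3 and 34.9 CPM in siCTL and 47.8 and 47.5 CPM in siKDM1A. It was called higher in siHDAC2, siGATAD2A and siKDM1A by 0.36 to 0.41, and in siCARM1 by 0.29 except without siCTL replicate 2 (0.24) or siCARM1 replicate 1 (0.11). LINC00667 was higher in siKDM1A by 0.35 (SE 0.0802), with 25.4 and 23.1 CPM in siCTL against 31.0 and 31.5 CPM, and was called in no other knockdown. LINC00467, at 2.93 to 4.71 CPM over all libraries, was called in none. LINC00473 was not over the minimum.

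At the minimum, LINC02749 (0.503 CPM) and LINC00479 (0.501 CPM) were just inside and LINC01337 (0.496 CPM) and LINC02966 (0.463 CPM) just outside. LINC02749 was over the minimum only because of the siCARM1 libraries, at 1.22 and 0.586 CPM, against 0.414 and 0.130 CPM in siCTL.

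Beside the members, 30 long noncoding RNAs with names of their own were listed and 29 tested. The numbers lower and higher were 3 and 9 in siCARM1 (10.3% and 31.0%, against 13.1% of all genes in each direction) and 4 and 14 in siCHD4 (13.8% and 48.3%, against 22.5% and 20.9%). They were 2 and 10 in siHDAC2 (6.90% and 34.5%, against 8.96% and 9.64%), 4 and 12 in siGATAD2A (13.8% and 41.4%, against 16.5% and 13.9%) and 2 and 9 in siKDM1A (6.90% and 31.0%, against 10.8% and 12.7%). MALAT1 and NEAT1, abundant nuclear RNAs, were among those lower in siCHD4, by -0.69 (SE 0.0337) and -0.80 (SE 0.0340) on the log2 scale. Both were also lower in siCARM1 (-0.42 and -0.36) and siGATAD2A (-0.33 and -0.80), and NEAT1 was higher in siHDAC2 (0.35). All 28 genes listed for turnover of nuclear RNA (exosome subunits and cofactors, cap binding and Integrator subunits) were tested. Of these 5 were lower and 3 higher in siCARM1 (17.9% and 10.7%, near the 13.1% of all genes in each direction). In the other knockdowns at most 2 (7.14%) were called in either direction, below the 8.96 to 22.5% of all genes. The 5 lower in siCARM1 were EXOSC6 (-0.44), PABPN1 (-0.36), EXOSC4 (-0.28), EXOSC1 (-0.27) and XRN2 (-0.27, SE 0.0483). The 3 higher there were INTS9 (0.36), INTS3 (0.35) and MTREX (0.30, SE 0.0485). INTS3 was also higher in siHDAC2 (0.39) and siKDM1A (0.36).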

How the data were processed

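RNA of HEK293T cells was sequenced as read pairs in 12 strand-keeping libraries of 19308315 to 28648657 counts on genes, and whether polyadenylated RNA was selected is not given in the sources used here. The deposited files hold counts of read pairs per gene, as the authors made them, unstranded and by strand. The submitters' processing notes name STAR 2.7.10, CASAVA 1.4 and hg19, while the study's methods name TopHat, HOMER and DESeq2, and the annotation release is not given in the sources used here. The strand column with nearly all counts was used, in which 7.93 to 8.40% as many counts lay on the other strand. Coordinates, lengths and starts came from GENCODE 44 lifted to GRCh37, matched by gene identifier for 58662 of 60660 identifiers, so exon models may differ from those counted. Counts on unmatched identifiers were 1.75 to 2.61% of a library.

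Genes with a mean of at least 0.5 CPM were fitted with edgeR 4.0.16 (R 4.3.3) by TMM scaling (factors 0.975 to 1.01) and a quasi-likelihood model of 6 group means. Each knockdown was compared with siCTL, the knockdowns with each other, and all groups by 1 omnibus test. Ratios on few counts used exact binomial intervals at 95% and a floor of 3 counts over a group (scipy 1.17.1). The fit was tested on simulated data. Alternatives were DESeq2 1.42.0, other scaling, filters, strand and groups, the replicate number, no fold minimum, and each library left out. Thinning every library to the smallest total was added after the data were seen. The members and lists were chosen with earlier results of these data known. Named members were the 5 most abundant, those called alike in all 5 knockdowns, the 3 largest changes of each knockdown with separate libraries and at least 1 CPM in a group, the 4 widest with opposite calls, those next to the minimum, and 7 chosen by name. A further marker of HEK293T is not reported here.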

Additional observations from a re-analysis of the deposited data

Results flagged for a closer look

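Of the members called in opposite directions in different knockdowns, 5 were named. Of these, 3 had passed the minimum through more than 1 group and differed between those knockdowns in the direct test. All 5 were taken up here for their opposite calls, so a direct test on the same libraries adds little. LINC00662 was 1.13 higher on the log2 scale in siGATAD2A than in siCHD4 (SE 0.0966), LINC02994 was 1.73 higher in siHDAC2 than in siCHD4 (SE 0.200), and LINC02820 was 1.70 higher in siCARM1 than in siCHD4 (SE 0.304). LINC02820 was at 1.30 and 1.43 CPM in siCTL, and its calls against siCTL were lost in siCARM1 without any of 4 libraries and in siCHD4 without siCTL replicate 2 (-0.82) or siCHD4 replicate 2 (-0.58), and in both with DESeq2 (0.80 and -0.89). The other two, LINC01271 and LINC00479, were over the minimum only because of the siCHD4 libraries, so a higher level in siCHD4 was built into the choice and their values are a description. LINC01271 was 2.53 higher on the log2 scale in siCHD4 than in siCARM1, but 69.1% of the counts at its locus lay on the other strand, where LINC01270 shares exonic bases. LINC00479 was at least 37.4-fold higher in siCHD4 than in siKDM1A, whose libraries held 0 counts, and its call lower in siKDM1A rested on 7 siCTL counts in all.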

How the results depend on the processing

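With DESeq2, 36 members were higher in siCARM1, 29 in siHDAC2 and 33 in siKDM1A, and 13 were lower in siGATAD2A and 11 in siKDM1A. The cause was not tested. Shares of all genes are not given for DESeq2 or for the left-out libraries, so a lean against all genes cannot be judged from these counts. Over the libraries left out in turn, the numbers lower ranged from 14 to 22 in siCARM1, 7 to 12 in siHDAC2, 13 to 27 in siGATAD2A and 7 to 17 in siKDM1A, and the numbers higher from 30 to 64, 27 to 52, 35 to 50 and 32 to 61 in the same order. In siCHD4 they ranged from 37 to 53 lower and 49 to 63 higher. Members higher in all 5 knockdowns ranged from 3 to 8 and members lower in all 5 from 2 to 4, and 174 to 191 differed between any groups. Where a library is left out, the lone library is assumed to vary like the other groups. RLE scaling, both other filters, counts without strand, 2-group fits, no fold minimum and thinning moved no count by over 1.5 times. The replicate numbers do not pair the libraries, as same-numbered deviations correlated between -0.102 and 0.0781 over 15 pairs of groups, and with the replicate block 65 members were higher in siCARM1 and 187 differed between any groups. Of 2040 rechecks of 102 values for named members, 1898 kept their side of the threshold, 141 lost it and 1 reversed, LINC01271 in siCHD4 at -0.39 when counted without strand, where the other strand's counts are included. Depth limits the scarce members, whose median was 44.1 counts per library.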
